A study of Rattus norvegicus with 10 samples.

Results

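The nuclear genes that encode the protein subunits of the respiratory chain were followed in the retina of newborn rats. The set was chosen by name, with earlier results of these data known. It took every gene with a single platform symbol that begins with Nduf and a subunit letter and digit, the genes Sdha to Sdhd, the Uqcr subunits, the Cox5 to Cox8 subunits and the Atp5 genes. It left out Cox4 and Ndufa4l2, and by its pattern of letters it does not take Ndufab1. Cox7a1 and the subunits encoded by mitochondrial DNA were not analysed here. This gave 73 of the 14324 genes named on the array. There were 32 genes of complex I, 4 of complex II, 7 of complex III, 14 of complex IV and 16 of complex V. Ndufa4 was counted with complex IV, because its protein belongs to cytochrome c oxidase in spite of the gene's name, and the complex V genes included Atp5if1, which encodes an inhibitor of the enzyme.

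RNA came from retinas at postnatal day 3, and each array held a pool of 3 rats taken from 2 litters. The groups were Sprague Dawley (SD) rats in cyclic hyperoxia (2 pools), SD rats in room air (3 pools), Fischer 344 (F344) rats in cyclic hyperoxia (3 pools) and F344 rats in room air (2 pools). Exposed litters entered the chamber with their dams within 12 hours of birth and then had 80% and 21% oxygen in turn, 24 hours each. The design describes SD as the strain susceptible to oxygen-induced retinopathy and F344 as the resistant one, and the comparisons ask how each responds to the exposure at an early stage of this disease model.

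Complex I takes electrons from NADH, complex II takes them from succinate, and both pass them to ubiquinone. Complex III hands them on to cytochrome c, complex IV gives them to oxygen, and complex V, the ATP synthase, uses the proton gradient that results. The retina is among the tissues with the highest oxygen use, and at this age its photoreceptors are still being born and have few of the packed mitochondria of the adult inner segment. Factors that bind many promoters of these genes, such as NRF1, GABP and YY1, are known from work in mammalian cells.

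Promoter sequences are shown for 4 of the members named in the results below, to set their control regions beside their values. Each runs from 250 bases before to 50 bases after the annotated gene start in RefSeq, build GRCr8. The capitals mark matches to 3 motifs, searched on both strands: the 10-letter palindrome of NRF1 or its looser form with the sixth base free, GABP (CCGGAAG) and YY1 (AAGATGGCG). Ndufa11 (chr9:1637364-1637663, plus strand), a membrane subunit of complex I, had 2 overlapping NRF1 matches, at positions -97 and -91 from the start. Ndufs5 (chr5:141264353-141264652, minus strand), another accessory subunit of complex I, had the looser NRF1 form at -129. Cox5b (chr9:46417587-46417886, plus strand), a nuclear subunit of cytochrome c oxidase, had a GABP match at -14. Atp5pf (chr11:37375052-37375351, minus strand), which encodes coupling factor 6 of the ATP synthase stalk, had a YY1 match at -111 and a GABP match at -84.
Ndufa11: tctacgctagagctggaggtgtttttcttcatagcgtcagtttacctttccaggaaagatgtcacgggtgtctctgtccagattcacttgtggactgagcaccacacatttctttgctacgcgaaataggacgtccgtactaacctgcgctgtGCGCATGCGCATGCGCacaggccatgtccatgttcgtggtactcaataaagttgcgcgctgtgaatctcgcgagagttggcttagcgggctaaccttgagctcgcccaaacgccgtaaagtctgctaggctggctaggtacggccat
Ndufs5: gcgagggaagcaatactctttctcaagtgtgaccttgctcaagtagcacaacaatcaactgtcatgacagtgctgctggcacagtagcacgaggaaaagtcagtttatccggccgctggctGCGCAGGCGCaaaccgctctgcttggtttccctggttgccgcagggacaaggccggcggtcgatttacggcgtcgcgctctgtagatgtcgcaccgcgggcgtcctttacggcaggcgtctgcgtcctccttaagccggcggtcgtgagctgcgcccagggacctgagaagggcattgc
Cox5b: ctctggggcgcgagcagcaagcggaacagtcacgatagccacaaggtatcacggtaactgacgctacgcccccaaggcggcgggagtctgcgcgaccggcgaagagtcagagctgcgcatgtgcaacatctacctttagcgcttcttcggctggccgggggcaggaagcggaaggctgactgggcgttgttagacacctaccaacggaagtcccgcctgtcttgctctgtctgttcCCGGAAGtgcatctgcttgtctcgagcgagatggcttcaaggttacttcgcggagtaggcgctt
Atp5pf: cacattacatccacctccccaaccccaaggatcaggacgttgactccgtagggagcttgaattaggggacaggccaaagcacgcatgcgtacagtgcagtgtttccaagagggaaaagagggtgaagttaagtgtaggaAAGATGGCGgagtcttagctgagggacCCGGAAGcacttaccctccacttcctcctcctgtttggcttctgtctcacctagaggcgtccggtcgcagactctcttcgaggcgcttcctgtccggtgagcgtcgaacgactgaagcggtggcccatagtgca

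Promoters of this kind were found for 65 of the 73 members. The stricter NRF1 form was present in 4 members' promoters (6.15%), against 0.932% of all 27457 promoters and 1.39% of the 11806 promoters of genes named on the array. Every strict match is also a looser one. The looser form was in 13 members (20%), against 4.71% of all promoters and 7.38% of those on the array. GABP matches were in 19 members (29.2%), against 9.22% and 13%, and YY1 matches in 8 members (12.3%), against 1.93% and 2.66%. Looser NRF1 or GABP matches occurred in 31 members, and 1 member had both. The 4 promoters shown all have a match. Those of Cox7b, Atp5f1e and Atp5if1, whose values also stand out below, have no match to any of the motifs. Among the YY1 matches, 6 of the 8 lay in complex I promoters, which made up 29 of the 65 searched. Those 6 were the promoters of Ndufa2, Ndufa6, Ndufa9, Ndufb8, Ndufs4 and Ndufs7. These are letter matches in a fixed window, not tested sites.

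Before the comparisons, 1 feature of the arrays touches every result. Along the first principal component of all probe sets, which held 34.1% of the variance, SD room air pool 3 (36.41) and F344 hyperoxia pool 3 (30.08) stood apart. The other 8 pools lay at or below -1.765. The design text says that 1 pool of each of these groups was added after such an analysis. Only these groups have a pool numbered 3, so the pools numbered 3 are taken to be the added ones, an inference from the numbering. Array medians lay between 5.9 and 6 on the log2 scale, and values were deposited to 1 decimal. Of the members, 70 lay above the median probe set's mean of 5.96, and the other 3 were Cox6a2, Cox8b and Cox8c. Cox6a2 and Cox8b encode the heart and muscle isoforms of their subunits, and 11 skeletal muscle markers had a mean between 5.136 and 5.309 in every pool.

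The members' median varied from pool to pool. Each member's value was set against the average of its 4 group means, and the median of these deviations was taken in each pool. It was 0.02 and -0.08 in the 2 SD hyperoxia pools, and -0.03, 0.10 and 0.26 in the 3 SD room air pools. It was -0.02, -0.06 and 0.24 in the 3 F344 hyperoxia pools, and -0.07 and -0.22 in the 2 F344 room air pools. The 2 highest pools were thus the pools numbered 3, and the lowest was F344 room air pool 2, where 69 of 73 members lay below their average. The median over all genes lay within 0.008 of 0 in every pool. The pools numbered 3 were also the 2 highest within each of complexes I to IV, and F344 room air pool 2 the lowest within every complex. In complex V SD room air pool 2 (0.18) lay above pool 3 (0.14).

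**Figure D1:**
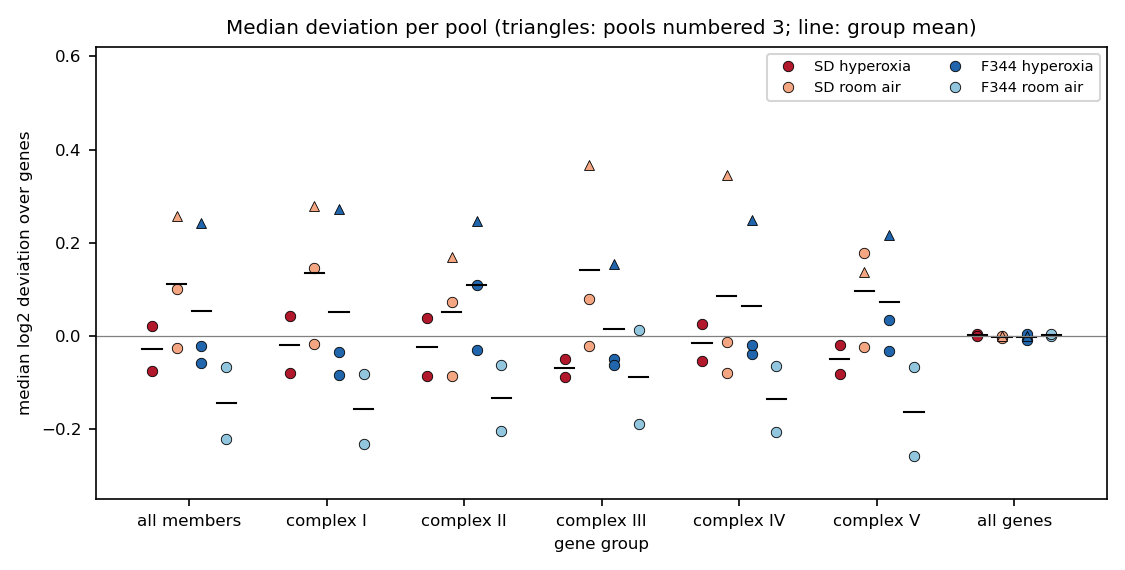
Median log2 deviation of the members, of each complex and of all genes (vertical axis) in each of the 10 pools, by group along the horizontal axis, with a line at each group's mean. Triangles are the pools numbered 3, which lay highest over all members at 0.26 (SD room air) and 0.24 (F344 hyperoxia), and F344 room air pool 2 lay lowest at -0.22.

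In SD retinas, the exposure was followed by slightly lower values of most subunit genes, none of which passed the test. Of the 73 members, 60 lay lower in hyperoxia than in room air, 11 higher and 2 equal, with a median log2 change of -0.13, against 0.00 over all genes. Of all genes, 46% lay below 0 and 49.4% above. By limma, 0 members passed at an adjusted p of 0.05 (smallest adjusted p = 0.815), where 0.0489% of all genes fell and 0% rose. At an unadjusted p under 0.05, 7 members were lower and 1 higher, against 2.95% and 1.74% of all genes. In 14 members every hyperoxia pool lay below every room air pool, and in 2 every one lay above, against 7.34% and 6.67% of all genes. Without the pools numbered 3 these counts were 15 and 6, against 11.5% and 11.2%. Among the 8245 genes above the median probe set, 713 lay below and 529 above without overlap with all pools. In whole retina, fewer cells of a type and less RNA per cell cannot be told apart.

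The 2 members with the smallest p-values in SD were accessory subunits of complex I. Ndufa2, an accessory subunit, read 6.5 and 6.6 in SD hyperoxia, against 6.8, 7.3 and 7.0 in SD room air (log2 values, one per pool). Ndufa11 read 7.9 in both SD hyperoxia pools, against 8.1, 8.6 and 8.4 in SD room air. Ndufa6, an accessory subunit of the LYR family, read 7.1 and 7.4 in SD hyperoxia, against 7.6, 7.7 and 8.4 in SD room air. In all 3 genes the groups did not overlap, but for Ndufa6 much of the distance came from SD room air pool 3. The log2 changes were -0.48 for Ndufa2 (SE 0.145, unadjusted p = 0.00586 by limma), -0.47 for Ndufa11 (SE 0.162) and -0.65 for Ndufa6 (SE 0.269), each with an adjusted p of 0.815. Ndufs5 lay lower by 0.58 (log2 change -0.58, SE 0.257). With both pools numbered 3 left out, Ndufa2 stood at -0.50, Ndufa11 at -0.45, Ndufa6 at -0.40 and Ndufs5 at -0.35.

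With all pools, core and accessory subunits of complex I differed in their medians. The 26 accessory genes had a median change of -0.18 in SD, with 25 below 0. The 6 measured core genes, which carry the flavin and the iron-sulfur clusters, had a median of -0.03. Of these, Ndufv1, the NADH-binding subunit, stood at 0.13, Ndufs1 at 0.10, Ndufs3 at -0.02, Ndufs8 at -0.05, Ndufs7 at -0.10 and Ndufv2 at -0.20. The highest change of complex I in SD was thus that of Ndufv1 and the lowest that of Ndufa6. In SD room air pool 3 the median deviation was 0.302 for accessory and 0.025 for core genes. In SD room air pools 1 and 2 it was -0.012 and 0.138 (accessory), against -0.031 and 0.162 (core). Among these pools, the accessory and core genes thus lay furthest apart in pool 3. The difference between core and accessory genes was not tested.

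The other complexes had smaller medians or few members. Complex II stood at -0.04, with Sdha, the flavoprotein that oxidises succinate, at 0.02, its iron-sulfur partner Sdhb at -0.02, and the membrane anchors Sdhc at -0.07 and Sdhd at -0.15. Complex III stood at -0.18, between Uqcrc2, a core protein, at 0.08 and Uqcrq, a small ubiquinone-binding subunit, at -0.30. Its core protein Uqcrc1 stood at -0.18 and its Rieske iron-sulfur protein Uqcrfs1 at -0.17. Complex IV stood at -0.11. Its lowest member was Cox7b, a small membrane subunit, at -0.62 (SE 0.343), and Cox5a and Cox5b, nuclear subunits that contact the catalytic core, stood at -0.20 and -0.28.

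In complex IV 3 genes stood above 0 in SD, and in 1 of them the groups did not overlap. That gene, Cox6b2, the testis isoform of subunit 6b, read 7.1 and 6.9 in SD hyperoxia, against 6.7, 6.8 and 6.7 in SD room air. Every SD hyperoxia pool lay above every SD room air pool, by a log2 change of 0.27 (SE 0.116, adjusted p = 0.815). In F344 it read 6.7, 6.9 and 6.7 in hyperoxia, against 6.8 and 6.6 in room air, which overlap.

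In complex V the median of the head was nearer to 0 than that of the other parts, a difference that was not tested. The 5 subunits of the F1 head had a median of 0.00, with Atp5f1a, the alpha subunit, at 0.22 and Atp5f1b, the catalytic beta subunit, at 0.00. The 11 others had a median of -0.13. Atp5po, the stator protein OSCP, read 8.8 in both SD hyperoxia pools, against 9.0, 9.3 and 9.2 in SD room air, a log2 change of -0.37 (SE 0.150). Atp5pf, lowest of the complex, stood at -0.42 (SE 0.196), and Atp5pd, the stalk subunit d, at -0.27 (SE 0.122). Within the head, the epsilon subunit Atp5f1e read 9.0 and 8.9 in SD hyperoxia, against 9.1, 9.4 and 9.3 in SD room air (log2 change -0.32, SE 0.129). Both Atp5po and Atp5f1e were lower in every SD hyperoxia pool than in any SD room air pool, and neither passed the adjusted test (0.815).

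In F344 retinas, the same genes lay on the other side of 0. Of the 73 members, 68 were higher in hyperoxia than in room air, 2 lower and 3 equal, with a median log2 change of 0.20, against 0.00 over all genes, 47.1% of which lay above 0 and 48.2% below. Again 0 members passed by limma (smallest adjusted p = 0.921), where 0% of all genes rose and 0.00698% fell. At an unadjusted p under 0.05, 14 members were higher and 1 lower, against 2.73% and 2.19% of all genes. In 19 members the hyperoxia pools lay above the room air pools without overlap, and in 1 below, against 6.6% and 6.32% of all genes. Without the pools numbered 3 these counts were 19 and 1, against 10.6% and 10%. Among the 8245 genes above the median probe set, 710 lay above and 325 below without overlap with all pools. The medians of the complexes were close to each other, at 0.22 for complexes I, II and III, 0.18 for complex IV and 0.20 for complex V.

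Cox5b had the smallest p in F344. It read 8.9, 8.3 and 8.9 in F344 hyperoxia, against 8.3 and 8.0 in F344 room air. The middle hyperoxia pool equalled the higher room air pool, so the groups touched (log2 change 0.55, SE 0.185, unadjusted p = 0.0115 and adjusted p = 0.921 by limma). Atp5pf read 9.1, 9.1 and 9.6 in F344 hyperoxia, against 8.9 and 8.5 in F344 room air, with no overlap (log2 change 0.57, SE 0.196). Uqcrq read 8.5, 8.1 and 8.4 in F344 hyperoxia, against 8.0 and 7.9 in F344 room air, also without overlap (0.38, SE 0.142). In each of these genes F344 room air pool 2 was the lowest of the F344 pools.

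Other F344 differences reached across the complexes. In complex I, Ndufs5 had the highest change at 0.62 (SE 0.257), followed by Ndufb9 at 0.60, and Ndufa10, an accessory subunit, had the lowest at -0.08. Ndufs8, a core subunit with iron-sulfur clusters, stood at 0.40 (SE 0.155). Of the other core subunits, Ndufs7 stood at 0.30, Ndufv2 at 0.18, Ndufs3 at 0.13 and Ndufs1 and Ndufv1 at 0.08 each. In complex II, Sdhb was highest at 0.30 and Sdhc lowest at 0.17, with Sdha at 0.20 and 9.3 in all 3 F344 hyperoxia pools, against 9.1 in both F344 room air pools. In complex III, Uqcr11 was lowest at 0.05, with Uqcrc1 at 0.27 and Uqcrfs1 at 0.17. In complex IV, Cox7b was highest at 0.65 (SE 0.343) and Cox5a stood at 0.28. In complex V, Atp5po stood at 0.40 (SE 0.150) and Atp5f1e at 0.33 (SE 0.129), while Atp5f1a was equal between the groups and Atp5f1b stood at 0.08.

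The gene that lay lower in F344 hyperoxia without overlap was Cox8c, another tissue-restricted isoform of cytochrome c oxidase. It read 4.2, 4.3 and 4.3 in F344 hyperoxia, against 4.5 and 4.6 in F344 room air (log2 change -0.28, SE 0.112). These values are among the dim ones of the array, and the SD groups overlapped, with 4.4 in both hyperoxia pools, against 4.6, 4.3 and 4.4 in room air. Ndufv3, an accessory subunit of complex I, is measured by 2 probe sets that disagreed. The one used here stood at 0.37 in F344 (SE 0.127) and the other at -0.18.

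**Figure D2:**
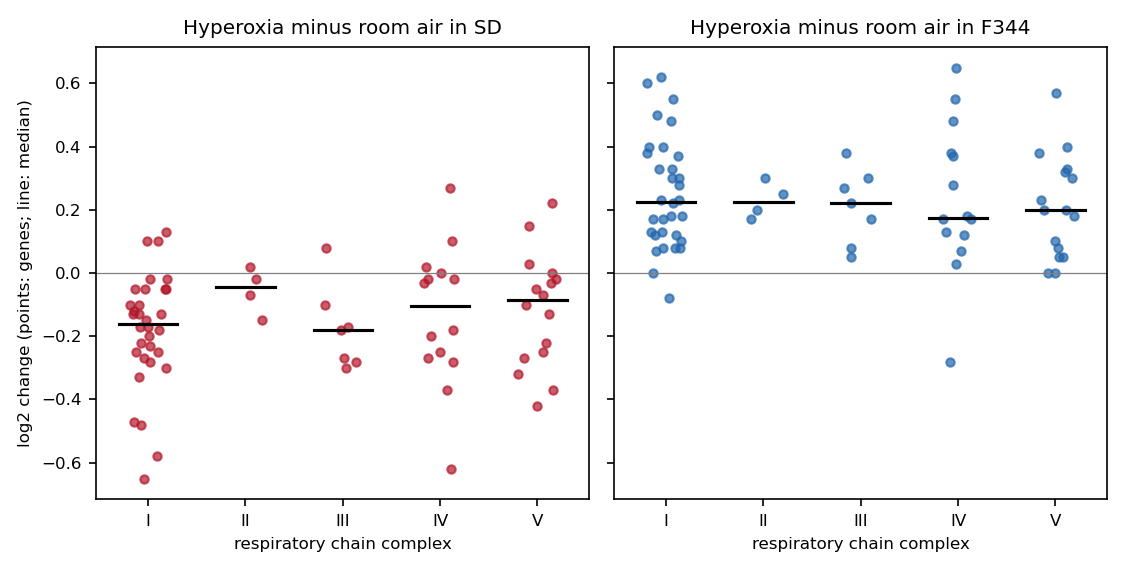
Log2 change, hyperoxia minus room air (vertical axis), of each member in SD (left) and F344 (right), by respiratory chain complex, with a line at each complex's median. In SD 60 of 73 points lie below 0 and in F344 68 lie above it, and no single gene passed the adjusted test in either strain.

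Set side by side, most members had opposite signs in the strains. Of the 73, 56 (76.7%) were lower in SD hyperoxia and higher in F344 hyperoxia, against 26.1% of all genes, and 0 showed the reverse, against 27.9%. The exposure effect in SD minus that in F344 was below 0 in 65 members and above 0 in 7, with a median of -0.37, against 0.02 over all genes, 46.2% of which lay below 0 and 50.6% above. Of the members, 0 passed this test of the difference by limma, as did 0% of all genes (smallest adjusted p = 0.651), and 19 were lower at an unadjusted p under 0.05, where 4.58% of all genes were lower and 2.4% higher. Among the 8245 genes above the median probe set, 554 were lower and 149 higher at that unadjusted p. By complex the members' medians were -0.39 for I, -0.28 for II, -0.45 for III, -0.37 for IV and -0.25 for V.

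The members with the smallest p for this difference were Ndufa11 at -0.85 (SE 0.229, unadjusted p = 0.00288 by limma), Atp5po at -0.77 (SE 0.213), Atp5f1e at -0.65 (SE 0.182), Atp5pf at -0.98 (SE 0.277) and Uqcrq at -0.68 (SE 0.201). The largest differences were those of Cox7b at -1.27 (SE 0.485) and Ndufs5 at -1.20 (SE 0.364). Ndufs5 read 8.4 and 8.3 in SD hyperoxia, against 8.6, 8.8 and 9.4 in SD room air, and 8.7, 8.5 and 9.4 in F344 hyperoxia, against 8.4 and 8.1 in F344 room air. A second Ndufs5 probe set gave -0.95. In each strain the groups of Ndufs5 did not overlap, and the highest pool of each was the one numbered 3.

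The pools numbered 3 bear on this difference by their place in the design, since 1 is an SD room air pool and the other an F344 hyperoxia pool. A shift that both share lowers the effect in SD and raises the one in F344. With a term for these pools the median difference was -0.15, and it was also -0.15 without both of them. Without them the medians were -0.05 in SD and 0.10 in F344, and 39 members (53.4%) lay lower in SD hyperoxia and higher in F344 hyperoxia, against 18.9% of all genes. Without them, examples were Ndufs5 at -0.70, Atp5pf at -0.65, Atp5po at -0.65, Uqcrc1 at -0.60 and Atp5f1e at -0.55. Ndufa11 lay further below 0 than each of these examples. Its pools numbered 1 and 2 read 7.9 and 7.9 in SD hyperoxia, against 8.1 and 8.6 in SD room air. In F344 they read 8.2 and 7.9 in hyperoxia, against 7.9 and 7.6 in room air. The SD median was also -0.05 without SD room air pool 3 alone and -0.20 without SD hyperoxia pool 1, and likewise without the room air pool of that number. The F344 median was 0.10 without hyperoxia pool 3, 0.30 without room air pool 1 and 0.13 without room air pool 2.

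**Figure D3:**
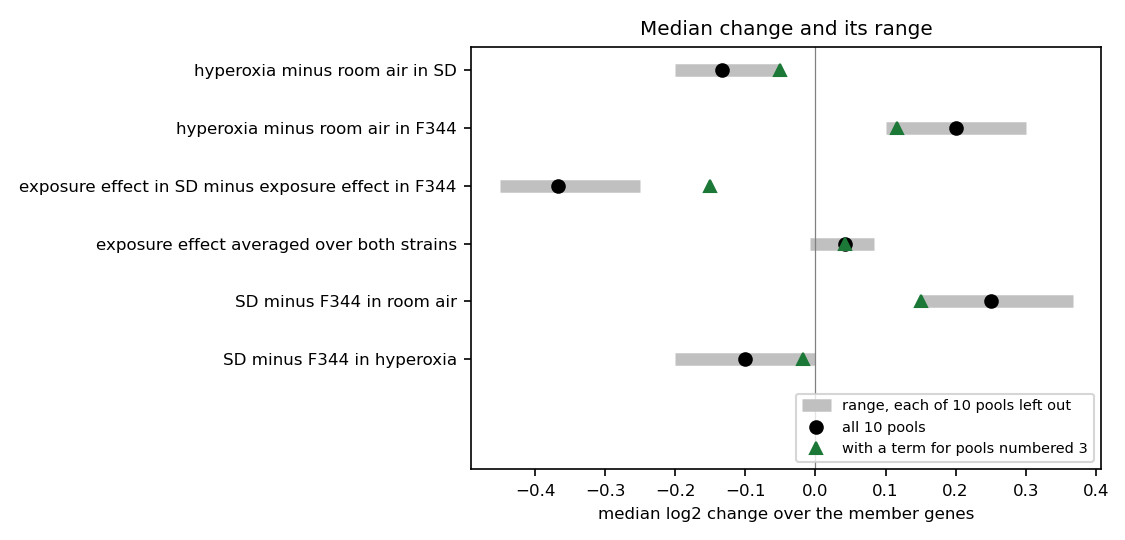
Median log2 change over the 73 members (horizontal axis) for 6 comparisons, with all 10 pools (black dots), with a term for the pools numbered 3 (green triangles), and the range over fits that leave out 1 pool each (grey bars). The difference of the exposure effects stood at -0.37 with all pools and at -0.15 with the term, outside the range from leaving out single pools.

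Averaged over both strains, the exposure left the members near 0. The average effect was above 0 in 51 members and below 0 in 17, against 50.3% and 46% of all genes. Its median was 0.04, against 0.01 over all genes, and 0 members passed or reached an unadjusted p under 0.05, where 1.34% of all genes were higher and 2.28% lower. At the adjusted threshold 0% of all genes rose and 0.0628% fell. The smallest p-values were those of Cox6b2 at 0.17, Cox8c at -0.16, Ndufs8 at 0.18, Ndufa4 at 0.18 and Ndufa2 at -0.15 (adjusted p = 0.99 each). With 1 pool left out at a time the median of the average lay between -0.008 (without F344 hyperoxia pool 3) and 0.083 (without F344 hyperoxia pool 2 or SD room air pool 3).

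In room air, most subunit genes lay higher in SD than in F344 retinas. Of 73 members, 65 were higher in SD and 8 lower, with a median log2 difference of 0.25, against 0.00 over all genes, 46.7% of which were higher and 49.6% lower. This comparison shares its pools with both exposure effects and is no separate line of evidence. By limma 0 members passed, where 0.377% of all genes were higher and 0.175% lower, and the smallest adjusted p was 0.0918. At an unadjusted p under 0.05, 25 members were higher and 0 lower, against 6.92% and 4.51% of all genes. In 30 members the groups did not overlap with SD higher, against 10.8% of all genes, and in 1, Atp5f1b at -0.15, with SD lower, against 9.93%. Without the pools numbered 3 these counts were 30 and 2, against 16.7% and 15.5%. With all pools, 1279 of the 8245 genes above the median probe set did not overlap with SD higher, and 721 with SD lower.

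The clearest of these were in complexes V and I. Atp5f1e read 9.1, 9.4 and 9.3 in SD room air, against 8.8 and 8.6 in F344 room air (0.57, SE 0.129, adjusted p = 0.0918). Ndufs8 read 8.2, 8.5 and 8.2 in SD room air, against 7.8 and 7.6 in F344 room air (0.60, SE 0.155, adjusted p = 0.147). Ndufv3 read 8.9, 8.9 and 9.0 in SD room air, against 8.5 and 8.3 in F344 room air (0.53, SE 0.127, adjusted p = 0.114). All 3 had every SD pool above both F344 pools. Ndufv3 passed in the fit with array weights (adjusted p = 0.0463) and without F344 hyperoxia pool 3 (adjusted p = 0.0454), but its second probe set stood at -0.08. Uqcrq stood at 0.55 (SE 0.142), Ndufa11 at 0.62 (SE 0.162) and Cox5b at 0.68 (SE 0.185).

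The accessory subunits of complex I had a median further from 0 than the core here too, as with exposure in SD. Both comparisons use the SD room air pools. In SD room air pool 3 the median deviation was 0.302 for accessory and 0.025 for core genes. For exposure in F344, which does not use those pools, the medians were 0.23 (accessory) and 0.16 (core). That effect does use F344 hyperoxia pool 3, where the median deviation was 0.279 for accessory and 0.194 for core genes. In F344 hyperoxia pools 1 and 2 the deviations were -0.031 and -0.09 (accessory), against -0.06 and -0.056 (core). The F344 effect also shares the F344 room air pools with the room air comparison, so it is no separate check. These differences were not tested. In room air, the accessory genes of complex I had a median of 0.38 (SD minus F344) and its core genes 0.16. The medians of complexes II to V were 0.17, 0.22, 0.20 and 0.27. With the term for the pools numbered 3, and without both of those pools, the median over all members was 0.15. It was also 0.15 without SD room air pool 3 alone, and 0.17 without F344 room air pool 2.

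Under hyperoxia the median member lay slightly lower in SD than in F344 with all pools, but not without the pools numbered 3. Of 73 members, 54 were lower in SD and 17 higher, with a median log2 difference of -0.10, against 0.00 over all genes, 47.3% of which were lower and 48.5% higher. These pools, too, are those of the exposure effects. By limma 0 members passed (smallest adjusted p = 0.722), where 0.237% of all genes were higher and 0.237% lower. At an unadjusted p under 0.05, 4 members were lower and 0 higher, against 3.22% and 3.49% of all genes. In 9 members SD lay lower without overlap and in 1 higher, against 7.34% and 8.04% of all genes. Without the pools numbered 3 these counts were 9 and 10, against 11.2% and 12.3%. The median was 0.00 without F344 hyperoxia pool 3, -0.20 without F344 hyperoxia pool 2, -0.051 with array weights and -0.017 with the term.

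Uqcrc1 had the smallest p here, at 8.7 and 8.8 in SD hyperoxia, against 9.1, 9.1 and 9.0 in F344 hyperoxia (-0.32, SE 0.139). Atp5f1b read 11.2 or less in both SD hyperoxia pools, against 11.3, 11.3 and 11.4 in F344 hyperoxia (-0.23, SE 0.103). Neither gene's groups overlapped. Atp5f1b was lower in SD than in F344 in both conditions, without overlap in either. Ndufa5, an accessory subunit of complex I, and Atp5mk, a small ATP synthase subunit, stood at -0.30 (SE 0.136) each, and Ndufs5 at -0.52 (SE 0.257).

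The comparison in which members did pass was that of the pools numbered 3 with the other pools of their groups. Of 73 members, 59 were higher in the pools numbered 3 and 12 lower, with a median log2 difference of 0.22, against 0.00 over all genes, 49.7% of which were higher and 45% lower. By limma 25 members were higher at an adjusted p of 0.05 and 0 lower, against 7.39% and 8.73% of all genes. Among the 8245 genes above the median probe set, 898 were higher and 1214 lower at that threshold. The 25 members were 14 of 32 genes of complex I, 0 of 4 of complex II, 3 of 7 of complex III, 6 of 14 of complex IV and 2 of 16 of complex V.

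Atp5if1, the inhibitor that stops the ATP synthase from running backwards, had the smallest p. It read 10.5 in SD room air pool 3, against 9.6 in both other pools of that group, and 10.4 in F344 hyperoxia pool 3, against 9.6 in both others (0.85, SE 0.087, adjusted p = 1.20e-04). The remaining 4 pools read between 9.5 and 9.7, so only the pools numbered 3 stood out. Cox7b had the largest difference, at 9.1 in SD room air pool 3, against 8.1 and 8.2, and 9.0 in F344 hyperoxia pool 3, against 8.0 and 7.9 (1.00, SE 0.148, adjusted p = 0.00102). In F344 room air pool 2 Cox7b read 7.3, the lowest of all 10 pools.

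The complex I genes that passed were accessory subunits, with Ndufv2, a core subunit with an iron-sulfur cluster, as the exception. Higher by 0.70 to 0.80 were Ndufa6 (SE 0.106), Ndufc2 (SE 0.130), Ndufs5 (SE 0.110), Ndufb9 (SE 0.111) and Ndufb6 (SE 0.112). Ndufs4 and Ndufb10 were higher by 0.57, Ndufb5 by 0.52, Ndufb4 by 0.50, Ndufb11 by 0.48, Ndufv2 by 0.42, Ndufa10 by 0.40, and Ndufa12 and Ndufa8 by 0.32. The accessory genes had a median of 0.29, with 13 of 26 passing, and the core genes 0.10, with 1 of 6 passing. At the other end, Ndufv1 stood at -0.22 and Ndufa9 at -0.20, and neither passed.

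In complex III the Rieske protein gene Uqcrfs1 (0.65, SE 0.098), the hinge protein gene Uqcrh (0.57, SE 0.086) and Uqcrb (0.42, SE 0.095) were higher, while the core protein Uqcrc1 stood at -0.22. In complex IV the genes were Cox7b, Cox7c (0.60), Cox7a2l (0.57), Cox5a (0.50), Ndufa4 (0.45) and Cox6a1 (0.32). Cox7a2l is known as a factor that joins complexes III and IV into supercomplexes. In complex V the gene beside Atp5if1 was Atp5pf (0.50, SE 0.113, adjusted p = 0.0109). Atp5f1a stood at -0.25 and Atp5f1b at 0.05, and of the head's 5 genes 0 passed. In fits with 1 of the pools numbered 3 at a time, the medians were 0.20 for the SD pool and 0.25 for the F344 pool. Each of these fits left out the whole group of the other pool, and 1 pool set the term. Whether either pool alone would give members past the threshold therefore cannot be judged. With each array centred on its median the median over both pools was 0.15.

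**Figure D4:**
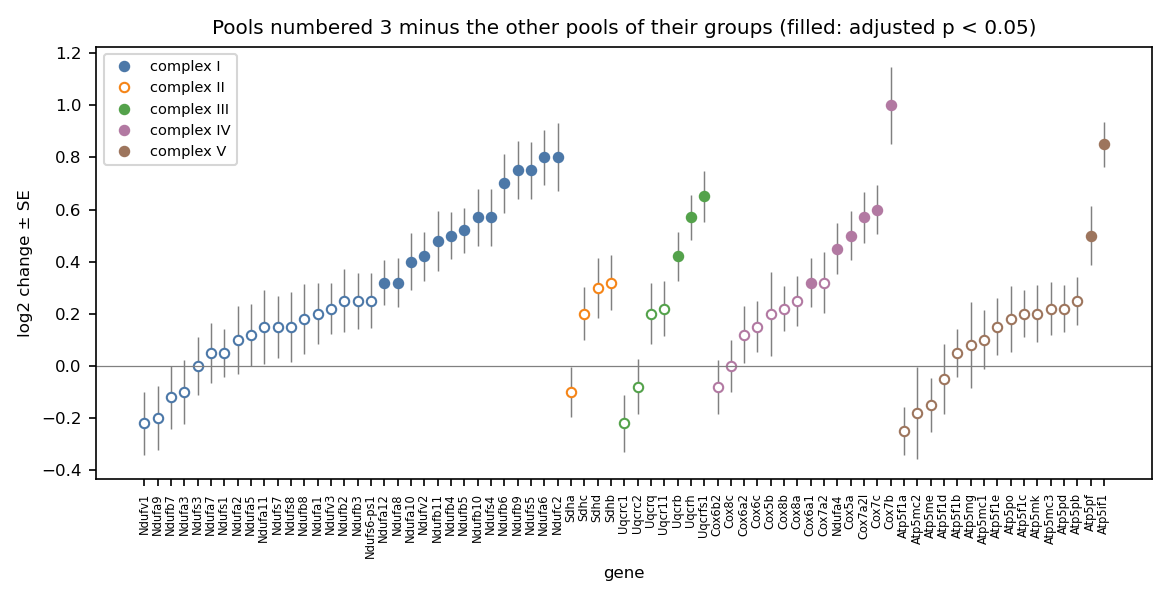
Log2 difference with its standard error (vertical axis) between the pools numbered 3 and the other pools of their groups, for each member, ordered within complexes by size; filled points passed at an adjusted p of 0.05. The 25 filled points are all above 0, led by Cox7b at 1.00 and Atp5if1 at 0.85, and 0 of 4 complex II genes are filled.

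Isoforms of one subunit were compared only by their changes, since levels of different probe sets cannot be set against each other. Cox6a1, the common isoform, stood at -0.25 in SD and 0.12 in F344, and its muscle isoform Cox6a2 at 0.00 and 0.03. Cox8a stood at 0.10 in SD and 0.17 in F344, and the muscle isoform Cox8b at -0.02 and 0.13. Cox7a2 stood at -0.18 in SD and 0.18 in F344. The genes Atp5mc1, Atp5mc2 and Atp5mc3 encode the same mature ring subunit of the ATP synthase. In SD they stood at -0.22, -0.03 and 0.15, and in F344 at 0.05, 0.30 and 0.05. A second probe set of Atp5mc2 gave 0.02 in F344. In all, 10 members had several probe sets, and those of Ndufv3 and Atp5mc2 disagreed most in F344, and Ndufs6-ps1 is named as a pseudogene in the current annotation.

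**Figure D5:**
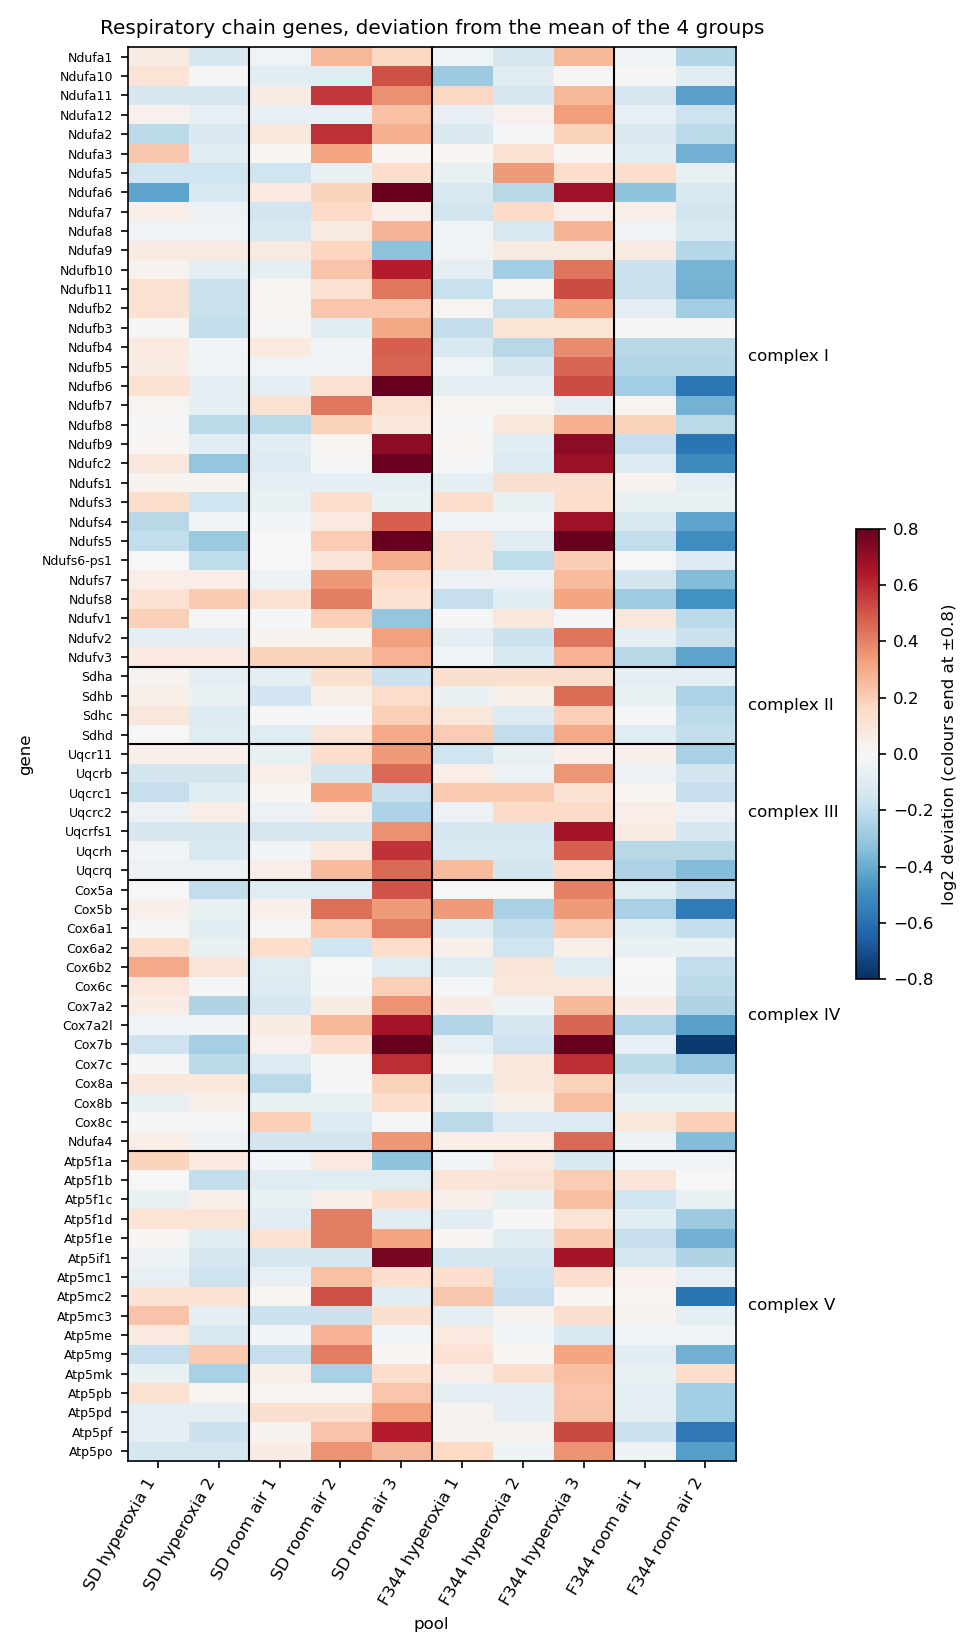
Log2 deviation of each of the 73 members (rows, by complex) from the average of its 4 group means in each of the 10 pools (columns), red above and blue below, with colours ending at 0.8 either way. SD room air pool 3 and F344 hyperoxia pool 3 are red in most rows, and F344 room air pool 2 is blue in 69 of 73.

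Among other genes of mitochondria, the median difference of the mitochondrial ribosome equalled that of the members. In the other lists of this paragraph it lay nearer to 0. The 67 genes of the mitochondrial ribosome had medians of -0.18 in SD and 0.18 in F344, with a difference of -0.37, and 20 genes of protein import -0.10, 0.19 and -0.28. The difference was smaller in 30 assembly factors of the respiratory complexes (-0.01 in SD, 0.12 in F344, -0.18), in 20 carriers of electrons and metabolites (-0.04, 0.13, -0.08) and in 13 genes of the citric acid cycle (0.02, 0.10, -0.08). None of these genes passed in either exposure comparison. Among the assembly factors, Surf1, which helps build cytochrome c oxidase, had the smallest p for the difference, at -0.68 (SE 0.221, adjusted p = 0.651). Of the carriers, cytochrome c (Cycs) stood at -0.25 in SD and 0.32 in F344, and was higher by 0.62 in the pools numbered 3 (SE 0.094, adjusted p = 0.00109).

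The 15 regulators of these genes had medians of -0.07 in SD and 0.07 in F344. Nrf1 stood at 0.08 and 0.00, Gabpa at -0.10 and -0.02, Tfam, which packs and transcribes mitochondrial DNA, at -0.13 and 0.10, and Yy1 at -0.13 and 0.23. Ppargc1a, a coactivator of mitochondrial genes, stood at -0.12 in SD and 0.53 in F344 (SE 0.237, adjusted p = 0.921). It was higher by 0.60 in the pools numbered 3 (SE 0.139, adjusted p = 0.0123), 1 of which is an F344 hyperoxia pool. Members with a YY1 match had a median difference of -0.56 (8 genes), against -0.33 for the 57 without. For GABP the medians were -0.40 with a match (19 genes) and -0.33 without. For the strict NRF1 form they were -0.55 (4 genes) and -0.37, and for the looser form -0.33 (13 genes) and -0.38. These splits were not tested.

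Of the cytochrome oxidase genes outside the set, Cox4i2, the isoform known to be induced by low oxygen, fell by 1.43 in SD (SE 0.153, adjusted p = 0.00798) and stood at -0.52 in F344. Cox4i1, the common isoform, stood at -0.40 and 0.28, like most members.

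Lists of genes outside mitochondria also had medians away from 0. The 67 cytosolic ribosomal protein genes had medians of -0.20 in SD and 0.13 in F344, a difference of -0.37, equal to that of the members, and 0.22 in the pools numbered 3. Markers of retinal cells were read as whole lists. The mean of 11 photoreceptor markers lay between 9.036 and 9.091 in SD hyperoxia and between 8.855 and 9.573 in SD room air, and between 9.009 and 9.509 in F344 hyperoxia and 8.691 and 8.736 in F344 room air. Their median change was -0.23 in SD and 0.32 in F344, where 11 of 11 lay above 0, and the difference was -0.50, further from 0 than that of the members. In the pools numbered 3 they had a median of 0.38, with 10 of 11 above 0. At the adjusted threshold 5 were higher and 0 lower, against 7.39% and 8.73% of all genes. Of 14 cell cycle markers, 1 lay above 0 and 13 below 0 there (median -0.45), and 0 passed as higher and 10 as lower. Their median change was 0.15 in SD and -0.06 in F344. Their mean level was 9.079 and 9.143 in the pools numbered 3, against 9.357 to 9.536 in the other 8. Of 8 ganglion cell markers, 7 lay above 0 there (median 0.36) and 4 passed as higher. Their median change was -0.29 in SD and 0.12 in F344, with a difference of -0.45. Of 5 retinal progenitor markers, 0 lay above 0 in the pools numbered 3 (median -0.10), and their median difference was -0.22. The median difference was -0.44 for 4 lens markers and -0.08 for 6 pigment epithelium markers. In the pools numbered 3 these 2 lists had medians of 0.14 and 0.16. The part of cell composition in the members' differences was not tested.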

How the data were processed

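RNA of whole retinas was hybridised to 10 Affymetrix rat gene arrays, 1 pool each. Per the labels, the pools are biological replicates from different rats. The deposited table gives log2 expression values per probe set to 1 decimal. Per the submitters' processing notes the tools were RMA and Partek 6.4, without their roles. How background was corrected and arrays were scaled is not given in the sources used here. The single decimal limits how small a difference can be seen, and having 10 arrays limits precision.

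All 27342 probe sets entered 1 fit with limma 3.58.1 in R 4.3.3, with a mean per group (6 residual degrees of freedom), eBayes, two-sided tests and Benjamini-Hochberg adjustment over all probe sets at 0.05. The script was tested on simulated data. Of the probe sets, 15097 had 1 gene symbol, 323 several and 11922 none; only the first kind was named, 1 probe set per gene with the highest mean. A further fit had a term for the pools numbered 3. Background shares are over all 14324 genes.

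The members, lists and rule for named genes were chosen with earlier results of these data known. Named genes were all members past the threshold, the 5 smallest p per comparison, the highest and lowest per complex, core subunits, isoform pairs, and up to 3 members of smallest p in other lists. Other genes are named as illustrations, chosen after their values were seen. Alternatives were repeated quantile normalization, median centring, averaging each gene's probe sets, brighter probe sets, array weights, trend and robust eBayes, a fit to the compared groups alone, a replicate block, the term for the pools numbered 3, and leaving pools out. Promoters are from RefSeq, build GRCr8.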

Additional observations from a re-analysis of the deposited data

Results flagged for a closer look

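With all pools, the members' median change with exposure lay below 0 in SD and above 0 in F344. The medians of the difference (SD minus F344) were therefore set out for a closer look. Over all members the median was -0.37. By complex it was -0.39 for complex I, -0.28 for complex II, -0.45 for complex III, -0.37 for complex IV and -0.25 for complex V. The differences over these lists were not tested. For single genes the difference was tested by limma, and 0 of 73 members passed (19 at an unadjusted p under 0.05). The pools numbered 3 move with this pattern, and with a term for them the median over all members was -0.15.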

How the results depend on the processing

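Of 254 repeats of the medians and counts under other settings, 247 differed from the value reported by less than 1 SD between pools (medians) or by no more than 1.5 times (counts), and 7 by more. Within 1 SD (0.136, for the members' median), a median could still shrink to nothing: that of SD minus F344 in hyperoxia was 0.00 without F344 hyperoxia pool 3 and without both pools numbered 3, and that of the average changed sign to -0.008 without F344 hyperoxia pool 3. The median difference of the exposure effects was -0.37, and -0.15 with a term for the pools numbered 3, without both of these pools and with the replicate number as a block. In room air, 1 member (Ndufv3) passed for SD against F344 with array weights, and 1 when F344 hyperoxia pool 3 was left out, against 0 otherwise. The count of 25 members past the threshold in the pools numbered 3 lay between 21 and 32 under the settings that kept both of these pools. Fits with 1 of these pools left out the whole group of the other, and 1 pool set the term. Their counts are among the 7 that differed by more, but cannot be compared with 25.

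With each of the 10 pools left out in turn, the median ranged between -0.20 and -0.05 for hyperoxia in SD, 0.10 and 0.30 for hyperoxia in F344, -0.45 and -0.25 for their difference, -0.008 and 0.083 for their average, 0.15 and 0.367 for SD minus F344 in room air, and -0.20 and 0.00 for SD minus F344 in hyperoxia. The number of members past the threshold ranged between 0 and 1 in the room air comparison and was 0 in all fits of the other 5.

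Correlations of the deviations of same-numbered pools ranged from -0.0529 to 0.1486 and did not pair the samples. With the replicate block, medians were -0.05 in SD, 0.117 in F344, 0.042 for their average, 0.15 for the strains in room air and -0.017 in hyperoxia, with 0 members passing in each, and 21 were past the threshold in the pools numbered 3. The causes were not tested. Each group had 2 or 3 pools, and signal over background was not analysed.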
